A study of Homo sapiens with 2 samples.

Results

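The globin genes encode the protein chains of hemoglobin, the oxygen carrier of red cells. The 10 genes HBA1, HBA2, HBZ, HBQ1, HBM, HBB, HBD, HBE1, HBG1 and HBG2 were taken by name, as every probe set of the array whose platform annotation lists at least 1 of them. They had 19 probe sets, of 54613 that are not array controls. The platform annotation names 21357 genes in all. A probe set is a group of short oligonucleotides on the array that together report on a transcript. Total RNA came from K562, a human erythroleukemia line, 24 hours after nucleofection (electrical transfer of nucleic acid into cells). One culture received 3 µg of a mimic of the microRNA miR-34a, and the other 3 µg of a control mimic without homology to human genes. Each group was 1 array from this single cell line. No difference between them has a replicate check, so no p-value is given, and precision is limited by having 1 array each.

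In the red cell lineage the globin genes are used in a developmental order along 2 clusters. The RefSeq gene table of GRCh38.p14 places HBZ, HBM, HBA2, HBA1 and HBQ1 in that order on chromosome 16, and HBB, HBD, HBG1, HBG2 and HBE1 on chromosome 11. Zeta globin (HBZ) and epsilon globin (HBE1) are the embryonic chains. The gamma globins (HBG1, HBG2) are the fetal beta-like chains, the alpha globins (HBA1, HBA2) serve fetal and adult blood, and beta (HBB) and delta (HBD) globin are the adult beta-like chains. HBA1 and HBA2 encode the same protein, and HBG1 and HBG2 nearly the same. Mu globin (HBM) and theta globin (HBQ1) are minor alpha-like genes whose roles are less clear. K562 cells are known for embryonic and fetal hemoglobin and for little adult beta globin.

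The agent that separates the cultures is shown by its natural counterpart. The mature microRNA lies in the gene MIR34A at chr1:9151735-9151756, minus strand, in GRCh38.p14 (RefSeq). In the sequence, written 5′ to 3′, capitals mark the seed, bases 2 to 8, with which a microRNA pairs to its targets. The design of the mimic itself is not given in the sources used here.
hsa-miR-34a-5p: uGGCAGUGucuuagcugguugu

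The 8 alpha-like globin probe sets above background read higher with the miR-34a mimic, while the beta-like ones lay on both sides of no change. HBZ had the largest log2 ratio of the family, 0.84, HBQ1 had 0.43, the alpha globins had 0.35 ± 0.070 (SD over 6 probe sets), and the gamma globins stood at -0.030 ± 0.021 (SD over 3 probe sets). A log2 ratio here is log2(signal + 14.9) with miR-34a less the same with control, after the median over expressed genes was subtracted. Signal means the deposited intensity, in arbitrary units. Of the 19 globin probe sets, 18 passed the filter on low values, a mean level equivalent to a signal of about 39.0. Of these 18, 12 were higher and 6 lower, with a median log2 ratio of 0.19, against -0.0039 over all 27307 probe sets that passed. The 6 alpha globin probe sets read the same pair of genes and are not independent of each other. A changed share of cells making a globin and a changed amount of its RNA per cell cannot be told apart in such bulk RNA.

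**Figure D1:**
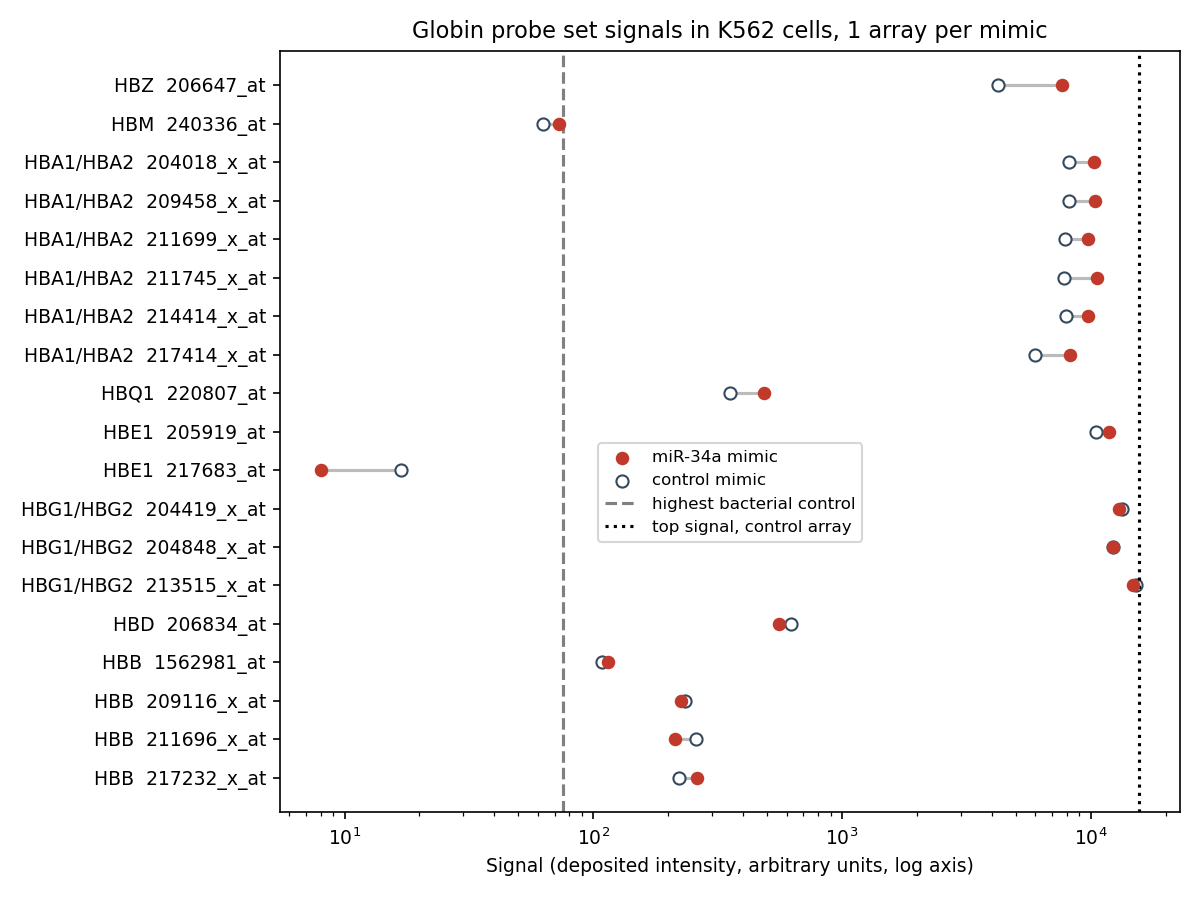
Signal of each globin probe set (rows, with gene and probe set name) on a log axis in arbitrary units, with the miR-34a array as filled points and the control array as open points, 1 array each. The alpha globin and HBZ points of the miR-34a array lie to the right of those of the control array, while the gamma globin points nearly coincide close to the top signal of the control array, 15627.

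No globin probe set reached 2-fold in either direction, a size that 0.531% of all expressed probe sets exceeded upward and 0.505% downward. At the smaller size of 1.2-fold, 8 of 18 were higher, against 16.2% of all expressed probe sets, and 1 was lower, against 16.3%. The 8 were the 6 alpha globin probe sets, HBZ and HBQ1, and the lower one was a probe set of HBB. HBZ alone passed 1.5-fold, which 3.16% of all expressed probe sets did upward and 3% downward.

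Among the embryonic genes, HBZ had a signal of 7672 with miR-34a and 4258 with control. The signals differed by a factor of 1.80, or 3414 units, and the log2 ratio of 0.84 was above that of 99.0% of all expressed probe sets. HBZ had 1 probe set, so no other one on the array bears on this value. HBE1, the embryonic chain of the beta cluster, read 11843 with miR-34a and 10516 with control on probe set 205919_at, a log2 ratio of 0.16. That value exceeded 74.0% of all expressed probe sets and is below 1.2-fold. The other HBE1 probe set, 217683_at, read 8.06 and 16.8 on the miR-34a and control arrays. Both signals lay below 75.4, the highest signal of 27 bacterial control probe sets, and are called within background, so this probe set gives no ratio that can be read. Thus 1 of the 2 HBE1 probe sets carried signal.

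The fetal gamma globins read nearly the same signals on both arrays. Their 3 probe sets are shared by HBG1 and HBG2 and do not separate the pair. Probe set 204419_x_at had signals of 13015 with miR-34a and 13339 with control, a log2 ratio of -0.044. Probe set 204848_x_at had 12281 with miR-34a and 12262 with control, and 213515_x_at had 14840 with miR-34a and 15162 with control. Their log2 ratios were -0.0067 and -0.040, and the sign of the first turned with no centring, with loess normalization and with the filter set at background. All 3 probe sets were among the 45 brightest of the control array and the 44 brightest of the miR-34a array.

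The alpha globins were higher on all 6 probe sets shared by HBA1 and HBA2. With miR-34a they read 10267 on 204018_x_at, 10414 on 209458_x_at, 9770 on 211699_x_at, 10558 on 211745_x_at, 9724 on 214414_x_at and 8239 on 217414_x_at. With control, in the same order, they read 8176, 8183, 7872, 7802, 7938 and 5977. Each probe set, set against itself, was thus brighter on the miR-34a array, by 1786 units on 214414_x_at to 2755 units on 211745_x_at. In signal the ratios ran between 1.22 on 214414_x_at and 1.38 on 217414_x_at, and the corresponding log2 ratios were 0.28 and 0.45. The dimmest probe set of the 6, 217414_x_at, thus had the largest ratio. The SD of 0.070 among the 6 log2 ratios can be set beside 0.24, the spread between probe sets of the same gene over the 5494 expressed genes with 2 or more. That spread pools genes at all signals that passed the filter. Over all probe sets at mean signals from 5000 to below 10000, where these 6 lie, the SD was only 0.14. Probe sets whose name ends in _x_at contain oligonucleotides that can also bind related transcripts, and all 6 are of that class.

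The minor alpha-like genes were read at lower signals. HBQ1 had 485.5 with miR-34a and 353.7 with control, a log2 ratio of 0.43 that exceeded 93.2% of all expressed probe sets. HBM had 72.6 with miR-34a and 62.9 with control, signals that were both within background and give no readable change. HBQ1 therefore joined HBZ and the alpha globin pair among the alpha-like genes that were higher by 1.2-fold or more. Its value rests on 1 probe set. Of all probe sets at mean signals from 250 to below 1000, where HBQ1 lies, 14.4% were that much higher.

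The adult beta-like genes lay on both sides of no change. HBD had a signal of 559.8 with miR-34a and 623.3 with control, a log2 ratio of -0.16. The 4 HBB probe sets had signals between 115.0 and 261.2 with miR-34a and between 108.1 and 258.0 with control. By log2 ratio they stood at -0.27 on 211696_x_at, -0.065 on 209116_x_at, 0.070 on 1562981_at and 0.22 on 217232_x_at, a mean of -0.012 ± 0.21 (SD over 4 probe sets). The HBB probe sets disagreed in sign, and their spread was larger than their mean. All but 1562981_at are of the _x_at class, and whether they read HBB alone or also related globin transcripts was not tested.

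**Figure D2:**
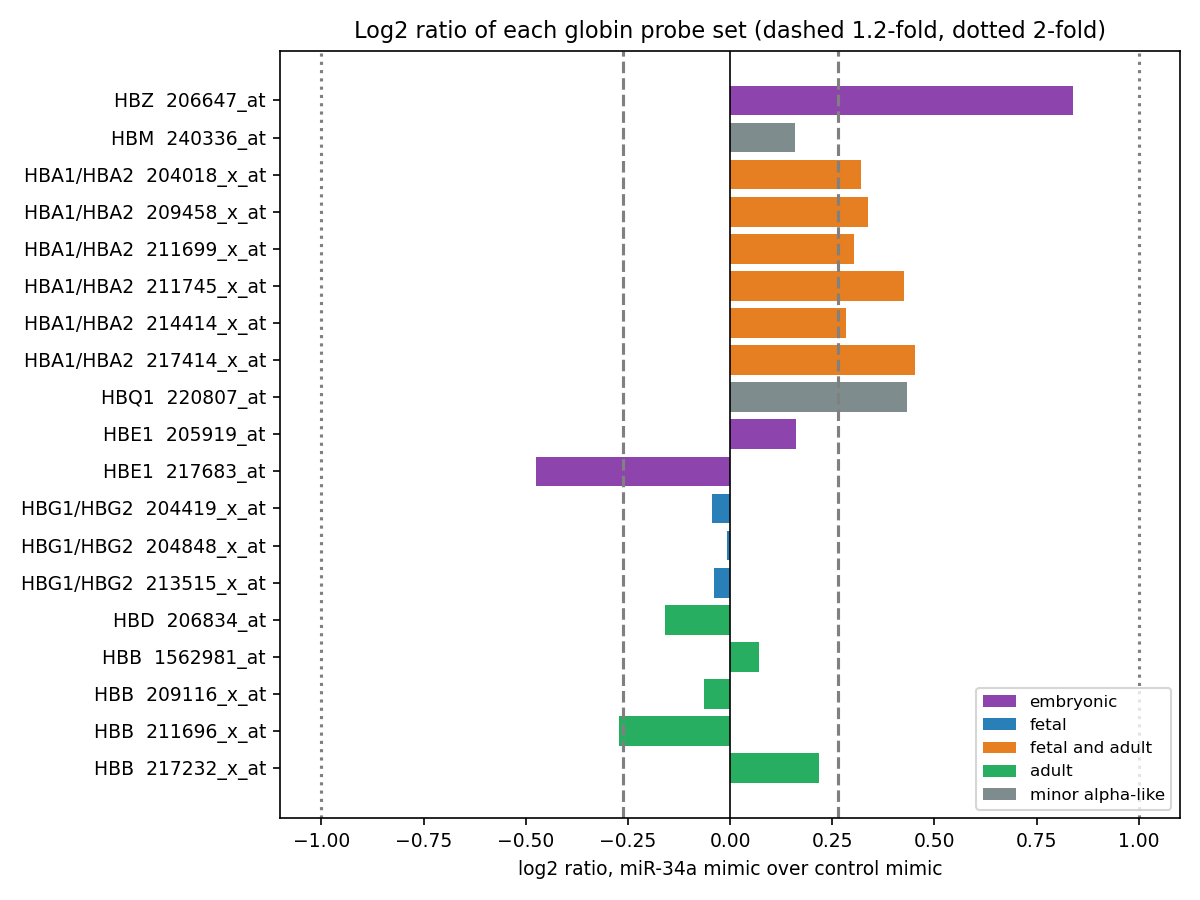
Log2 ratio (miR-34a mimic over control mimic) of each of the 19 globin probe sets, coloured by developmental stage, with dashed lines at 1.2-fold and dotted lines at 2-fold. The alpha-like bars (upper 9 rows) point right, up to 0.84 for HBZ, with HBM within background on both arrays, while the beta-like bars point both ways. The lower HBE1 bar, at -0.47, is from a probe set within background on both arrays.

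By cluster, the 9 alpha-like probe sets, HBM within background included, had a median log2 ratio of 0.34 and a range of 0.16 to 0.84. All of these were above 0, where 49.4% of all expressed probe sets were. Of the 9 beta-like probe sets that passed the filter, 3 were higher and 6 lower, with a median of -0.040 and a range of -0.27 to 0.22. The beta-like median was 0.075 when the less specific probe set classes were left out. The alpha-like probe sets stand for HBZ, HBM, HBQ1 and the HBA1 and HBA2 pair, and their median was 0.39 with each of these 4 counted once. By stage, the median was 0.50 for the 2 embryonic probe sets that passed, 0.33 for the 6 fetal and adult alpha globin ones, -0.040 for the 3 fetal gamma globin ones and -0.065 for the 5 adult beta-like ones. The embryonic pair was itself uneven, HBZ at 0.84 and HBE1 at 0.16.

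The brightest globins were read close to the top of the scale. The highest signal was 15527 on the miR-34a array and 15627 on the control array. The gamma globin probe sets lay between 79.1% and 95.6% of it with miR-34a and between 78.5% and 97.0% with control. HBE1 stood at 76.3% with miR-34a and 67.3% with control, and the alpha globins between 53.1% and 68.0% with miR-34a and between 38.3% and 52.4% with control. HBZ was lower, at 49.4% with miR-34a and 27.2% with control. In all, 227 probe sets reached 50% of the top signal on either array, and 10 of them were globin probe sets.

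Ratios of all probe sets narrowed toward the top. The SD of the log2 ratio was 0.33 over 6442 probe sets with a mean signal from 250 to below 1000, 0.14 over 276 from 5000 to below 10000, and 0.053 over 119 at 10000 and above. In the last of these bins the log2 ratios ran from -0.17 to 0.16, and the upper end was HBE1 itself. No probe set there passed 1.2-fold in either direction, so the gamma globins lay in a range where no probe set differed by that much. Whether signals near the top were compressed was not tested. At mean signals of 5000 or more there were 11 globin probe sets, of which 7 passed 1.2-fold upward and 0 downward. The 7 were HBZ and the 6 alpha globin probe sets, which read the same pair of genes and are not independent of each other. Of the 384 other probe sets at such signals, 4 passed 1.2-fold upward, 1.04%, and 6 downward, 1.56%, with a median log2 ratio of -0.019. The largest log2 ratio among those others was 0.66, for the ribosomal protein gene RPL18, and HBZ stood above it.

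**Figure D3:**
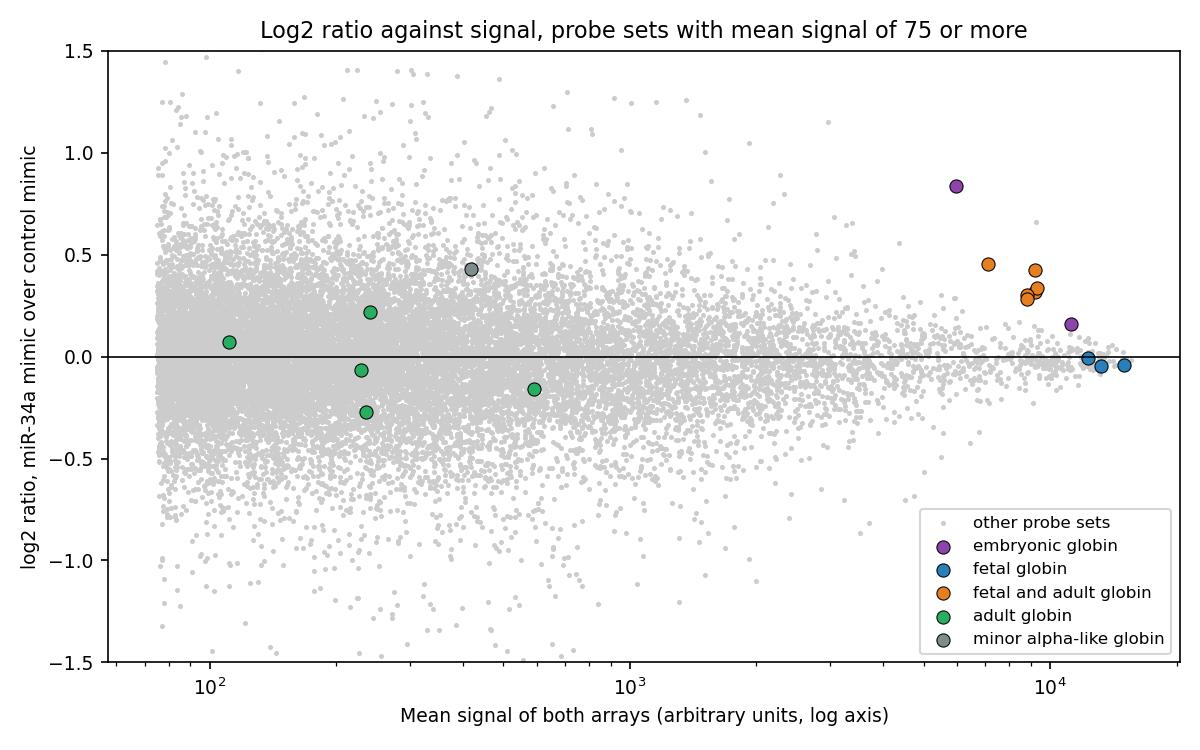
Log2 ratio (miR-34a mimic over control mimic) against the mean signal of both arrays (log axis, arbitrary units), with other probe sets in grey and globin probe sets coloured by stage, for mean signals of 75 or more. HBZ and the 6 alpha globin points lie above most of the grey cloud at their signal, and the gamma globin points lie near 0 where the cloud is narrowest. A further 44 other probe sets lie beyond the plotted range of 1.5 in either direction.

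Measures of the arrays themselves stood as follows. The median signal was 40.1 with miR-34a and 39.5 with control, and 18 spiked-in control probe sets had a mean log2 ratio of 0.0055 ± 0.068 (SD). The 3′ to 5′ signal ratio of GAPDH, which grows with RNA degradation, was 3.53 with miR-34a and 3.07 with control, and that of ACTB 4.54 with miR-34a and 4.30 with control. It moved the same way as the alpha-like globins, and its part in their values was not tested. Erythroid markers other than globins were present on both arrays, with the transferrin receptor gene TFRC at 6309 with miR-34a and 6806 with control, and GATA1 at 1395 with miR-34a and 1187 with control. Of 8 markers of other blood cells 7 were on the array and 3 passed the filter. Their summed signal was 1086 with miR-34a and 993.3 with control, most of it from LYZ and CD79A, while those of CD3E, CD14, MPO, NKG7 and MS4A1 lay within background with either mimic. LYZ and CD79A each carried signal on 1 of 2 probe sets. The other LYZ probe set read 1 with miR-34a and 19.6 with control, and the other of CD79A 8.29 and 5.14, all within background. The 4 markers of other tissues summed to 960.7 with miR-34a and 1734 with control, of which the epithelial gene EPCAM made up 653.7 with miR-34a and 1426 with control.

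Genes that control the globin clusters lay on both sides of no change. Of 30 listed regulators, 27 were expressed, 13 were higher and 14 lower, and their median log2 ratio was -0.031, against 0 over all 12774 expressed genes by construction. It was 0.039 without the less specific probe set classes. For each gene the brightest expressed probe set was used. None reached 2-fold, where 0.595% of all expressed genes were that much higher and 0.548% lower, 5 were at least 1.2-fold higher (16.4% of all expressed genes) and 4 at least 1.2-fold lower (15.4%).

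GATA1, the main erythroid transcription factor, had a log2 ratio of 0.22, with its other probe set at 0.23. NFE2, which binds the locus control region of the beta cluster, had signals of 1841 with miR-34a and 1524 with control, a log2 ratio of 0.26. TAL1, a partner of GATA1, had 0.19, with other expressed probe sets at 0.14 and -0.10. KLF1, an activator of adult beta globin, had 0.096, with signals of 1579 and 1467 on the miR-34a and control arrays. These genes were preset. Of the 27 expressed regulators, 14 were lower, among them LDB1, which joins the GATA1 and TAL1 complex, at -0.11. The 13 higher ones included LMO2, at 0.38, with 1644 with miR-34a and 1253 with control.

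The 3 highest of the list were ZFPM1, KLF3 and SOX6. ZFPM1, which encodes the GATA1 cofactor FOG1, had 0.75, with 362.3 with miR-34a and 208.1 with control. KLF3, a repressor related to KLF1, had 0.54, and between 0.29 and 0.54 on its 3 expressed probe sets. SOX6, which takes part in silencing of epsilon and gamma globin, had 0.41, but its 6 expressed probe sets ran from -0.26 to 0.54. The probe set at -0.26 was within background with miR-34a.

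Some other listed genes are known for a part in silencing the embryonic and fetal beta-like genes. BCL11A, a repressor of gamma globin, read 32.8 with miR-34a and 22.3 with control at most, both within background. ZBTB7A, another such repressor, had a log2 ratio of 0.10, with 0.028 and -0.34 on its other expressed probe sets. The one at -0.34 was within background on both arrays. NR2C1 had -0.19, NR2C2 -0.031, CHD4 -0.13, MBD2 -0.13, the demethylase gene KDM1A -0.22 and the DNA methyltransferase gene DNMT1 -0.076. These 6, LDB1 and LMO2 were named after their values were seen. Other expressed probe sets of NR2C1 and MBD2 reached 0.58 and 0.15. The former was within background with control and the latter on both arrays. NFIX and NFIA, also listed and also named after their values were seen, lay on opposite sides. NFIX had 0.30, with dim signals of 99.0 with miR-34a and 76.8 with control. NFIA had -0.29 on its brightest probe set, with other expressed probe sets up to 0.28. The probe set at 0.28 was within background on both arrays. MYB, a progenitor factor whose loss is known to raise gamma globin, was the lowest of the regulators at -0.79, with 1748 with miR-34a and 3023 with control. KLF13, a listed regulator not counted here among the silencing genes, read 69.8, within background, with miR-34a and 128.9 with control. IKZF1 had -0.35 on its brightest probe set, with others up to 0.62, the latter on a probe set within background on both arrays.

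Heme is the iron-bearing group that globin chains hold. Of 18 listed genes for heme and hemoglobin assembly 17 were expressed, 13 were higher, where 50% of all expressed genes were, and 4 lower, and the median log2 ratio was 0.16. At least 1.2-fold, 8 were higher and 2 lower, against 16.4% and 15.4% of all expressed genes, and 1 passed 2-fold upward, against 0.595%. Among the 13 genes above background on both arrays, 10 were higher and 3 lower, 6 and 2 of these past 1.2-fold, and 0 reached 2-fold. ALAS2, the first enzyme of erythroid heme synthesis, read 131.4 with miR-34a and 24.6, within background, with control. It was the 1 gene counted past 2-fold. Its miR-34a signal was 1.74 times the background limit of 75.4, and its other probe set did not pass the filter. CPOX, a later enzyme of the pathway, had 0.89, with 964.3 with miR-34a and 509.3 with control. SLC25A37, the mitochondrial iron importer mitoferrin, had 0.72 and was higher on all 7 expressed probe sets, by 0.28 to 0.99. AHSP, which encodes the chaperone that stabilises free alpha globin chains, had 91.2 with miR-34a and 52.9, within background, with control. The miR-34a signal of AHSP was 1.21 times the background limit. BLVRA, which acts in heme breakdown, was lowest at -0.60, with -0.59, -0.40 and 0.018 on its other expressed probe sets. The probe set at 0.018 was within background on both arrays. BLVRB, of the same list and named after its value was seen, had 0.49, with 4029 with miR-34a and 2844 with control. SLC25A38, the mitochondrial carrier that supplies glycine for heme, had -0.38. ALAD had -0.17 and 0.31 on its 2 expressed probe sets, whose signals were within background on both arrays.

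Genes for hemoglobin function and red cell redox defence showed smaller differences. Of 10 listed genes 8 were expressed, 6 higher, where 50% of all expressed genes were, and 2 lower, with a median log2 ratio of 0.046. At least 1.2-fold, 2 were higher and 0 lower, against 16.4% and 15.4% of all expressed genes. Among the 7 genes above background on both arrays, 5 were higher and 2 lower. BPGM, which makes the effector that loosens oxygen from hemoglobin, had 0.55, with 335.5 with miR-34a and 223.1 with control. CA1, a red cell carbonic anhydrase, read 70.5 with miR-34a and 37.5 with control, both within background. CYB5A, whose product reduces oxidised hemoglobin, had 0.15, and -0.20 and -0.089 on its other expressed probe sets. The one at -0.089 was within background with miR-34a. The lowest were GSR at -0.13, CAT at -0.12 and CYB5R3 at 0.0084.

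Neighbours of the clusters were measured too. Around the alpha cluster 6 of 7 listed genes were expressed, 4 higher, where 50% of all expressed genes were, and 2 lower. Their median log2 ratio was 0.063. NPRL3, whose introns hold the main enhancers of the alpha globin genes, had 0.45 on its brightest probe set and 0.10 and 0.030 on the other expressed ones. The probe set at 0.10 was within background on both arrays. MPG, a DNA repair enzyme gene, had 0.34, FAM234A 0.079, SNRNP25 0.047 and POLR3K -0.15. LUC7L, a splicing factor gene beyond HBQ1, had -0.41 and was lower on all 4 expressed probe sets. RHBDF1 was within background. The higher readings of HBZ, the alpha globins and HBQ1 were thus not shared by every neighbour.

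Around the beta cluster 6 of 8 listed genes were expressed, 2 higher, where 50% of all expressed genes were, and 4 lower. Their median log2 ratio was -0.17. HBBP1, a beta-like pseudogene inside the cluster, had a signal of 828.8 with miR-34a and 1028 with control, a log2 ratio of -0.31. It lies between HBG1 and HBD on the chromosome. The olfactory receptor genes beside the cluster were dim. OR51B5 had -0.34 and OR51B4 -0.076, with miR-34a signals of 120.7 and 228.5. OR51B2 had 0.15, while OR52A1 was within background with control and OR51B6 and OR51M1 with both mimics.

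**Figure D4:**
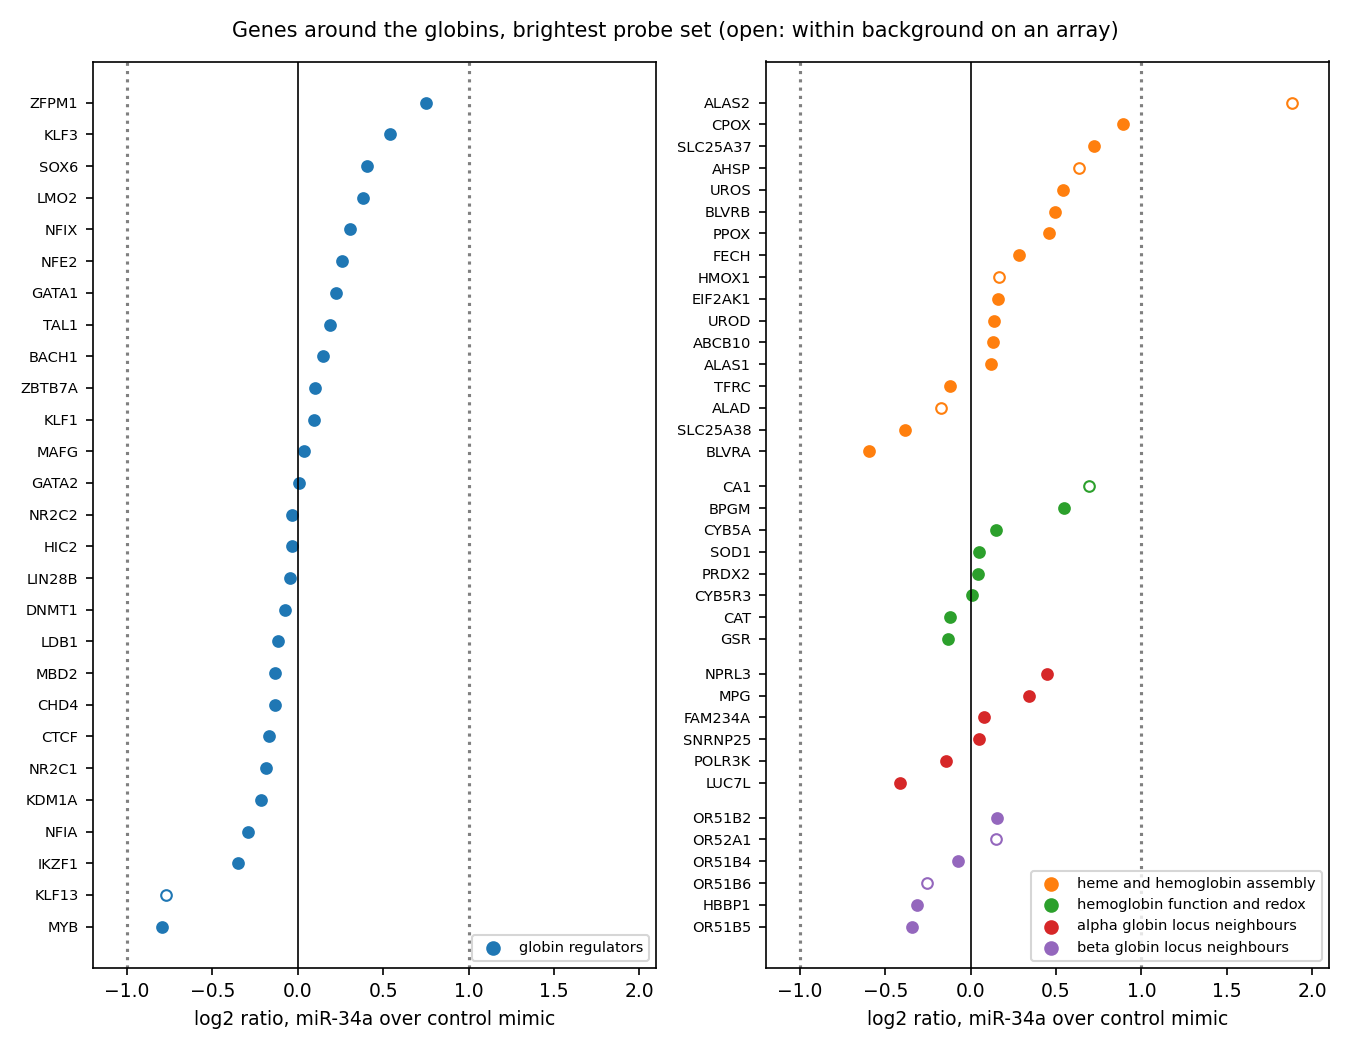
Log2 ratio (miR-34a mimic over control mimic) of the brightest expressed probe set of each listed gene, with globin regulators on the left and the other lists on the right, and dotted lines at 2-fold. Open points had a signal within background on at least 1 array. Regulators spread on both sides of 0, between MYB at -0.79 and ZFPM1 at 0.75, and 13 of 17 heme and hemoglobin assembly genes lie to the right of 0.

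Of the other globin genes, cytoglobin (CYGB), found in many tissues, had a log2 ratio of 0.32 on its brightest probe set, with 160.3 with miR-34a and 124.2 with control, and 0.047 on its other expressed one. Myoglobin (MB), neuroglobin (NGB) and ADGB read within background on both arrays.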

How the data were processed

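Total RNA of 2 K562 cultures was measured, with biotin-labelled cRNA on Affymetrix arrays, per the labels' protocols. The authors deposited 1 table of linear intensity values with a floor of 1. The sources used here do not give its software, background correction or scaling, it has no detection calls, and 0 columns belonged to other samples. Whether bright signals were corrected is unknown, which bears on the gamma globins most.

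The pseudocount of 14.9 is the 25th percentile of all values, and the median ratio subtracted was 0.0090. A probe set was expressed if its mean log2 level reached the median of probe sets other than controls. Genes outside the globins used only probe sets with 1 symbol. Those named are the 3 highest and lowest of each list, preset regulators and assembly genes, and all of the smaller lists. Replicates were lacking, so genes were counted by size. The members and lists were chosen with earlier results of these data known. The calculation was tested on simulated data with planted changes of 2-fold or more and no compression of bright signals. That test bears on the arithmetic only, since no globin probe set reached 2-fold. RPL18, LYZ and other checks were named after their values were seen. Python 3.11.15, NumPy 2.4.6, pandas 2.3.3, statsmodels 0.14.6 and matplotlib 3.10.9 were used.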

Additional observations from a re-analysis of the deposited data

How the results depend on the processing

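Alternatives changed the pseudocount, centring, normalization, filter, probe sets and size threshold. All 157 values of single globin probe sets under them moved by less than 0.24, the spread between probe sets of a gene. That size is larger than most beta-like log2 ratios, so a value could turn sign within it. Changes of filter or of probe sets act on a single probe set only through the median subtracted, which leaves it little room to move. Of all 387 values, 12 moved past 0.24 or, for counts, by over 1.5 times, each given below. The alpha-like median lay between 0.33 and 0.44, the HBZ log2 ratio between 0.83 and 0.86, and the beta-like median between -0.065 and 0.075, above 0 without the less specific classes. The median of the globin regulators was likewise 0.039 without them, and the sign of gamma globin probe set 204848_x_at turned under 3 alternatives. No globin probe set reached 2-fold under any of the alternatives run. The 8 probe sets at least 1.2-fold higher became 2 without the less specific classes and 2 without probe sets near the top signal, both of which leave out the alpha globins, and 1 at a threshold of 1.5-fold. The 1 lower probe set became 0 with 4 times the pseudocount, with no centring, without the less specific classes and at 1.5-fold, and 2 with no filter, which admits the HBE1 probe set within background. The embryonic median was 0.16 with no filter and 0.84 without probe sets near the top, where only HBZ is left. The heme and assembly genes past 2-fold became 0 with both arrays above background and 0 without the less specific classes, since ALAS2 is then left out. The fetal gamma globins and the alpha globins have no value without the less specific classes or without probe sets near the top. No paired analysis was possible because each group holds 1 array.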
